A study of Sinopodophyllum hexandrum with 2 samples.

Results

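The miRNA families miR397, miR398 and miR408 were followed through the conserved miRNAs listed for 2 small RNA libraries of mature leaf of Sinopodophyllum hexandrum (Podophyllum hexandrum), a medicinal herb. One library came from a treated plant sample and the other from a control sample, and the sources used here name neither the treatment nor the genotype. Every entry named as miR397, miR398 or miR408, with no further digit, was taken. This gave 40 names of the 181 in either list, with 35 of 155 for the control library and 13 of 107 for the treated library. The lists hold a name and a mature sequence per entry and no abundance, so nothing below is a level of a miRNA. With 1 library per group and no read counts, no test of the treatment was possible, and depth is unknown. Names carry codes of other plant species, and it is not stated whether this plant's own reads had exactly the printed sequences.

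In plants, a miRNA guides an Argonaute protein to transcripts that pair with nearly its whole length, and these are cut or kept from being translated. miR397, miR398 and miR408 are known from Arabidopsis thaliana as copper miRNAs. They accumulate when copper is scarce, through the transcription factor SPL7, and lower the transcripts of copper proteins that the cell can do without. miR398 targets Cu/Zn superoxide dismutases and the chaperone that loads them with copper, miR397 targets laccases, copper enzymes that polymerise lignin precursors, and miR408 targets plantacyanin and laccases. Another laccase regulator of this group, miR857, stood in neither list. Of these 4 families, 3 had entries in both lists, but these 3 are the families chosen here from the same lists. The count is therefore no result about the group. The share of all listed families with entries in both lists was not computed.

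The 40 names held 16 distinct mature sequences. All are shown, because the comparison of the libraries rests on single bases in them. Each is written 5′ to 3′ from the deposited lists under 1 of its names, with the seed (bases 2 to 8) in capitals. The 8 sequences of miR398 come first.
osa-miR398b: uGUGUUCUcaggucgccccug
ppe-miR398b: cGUGUUCUcaggucgccccug
zma-miR398a-3p: uGUGUUCUcaggucgcccccg
ath-miR398c-3p: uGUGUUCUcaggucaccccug
ghr-miR398: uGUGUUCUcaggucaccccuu
lus-miR398d: uGUGUUCUcaggucaccccuc
atr-miR398: uGUGUUCCcaggucgccccug
hbr-miR398: gGAGCGACcugagaucacaug

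The 2 sequences of miR397 were each in a single list.
hvu-miR397a: cCGUUGAGugcagcguugaug
pab-miR397: uCAUUGAGugcagcguugacg

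The 6 sequences of miR408 are ordered by seed, since some start 1 base later than the others.
aly-miR408-3p: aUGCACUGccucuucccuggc
bdi-miR408-3p: cUGCACUGccucuucccuggc
ata-miR408-3p: uGCACUGCcucuucccugcc
ppt-miR408b: uGCACUGCcucuucccuggcu
smo-miR408: uGCACUGCcucuucccuggcug
stu-miR408a-3p: uGCACAGCcucuucccugguu

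Of the 16 sequences, 6 were in both lists (37.5%, exact 95% binomial interval 15.2% to 64.6%, which treats sequences as independent, although those of a family are related). A further 8 were in the control list only and 2 in the treated list only. Over all families, 41.0% of the 122 distinct sequences were in both lists, so the share for the copper miRNAs lay close to this background. Of the same 122 sequences, 52 were in the control list only and 20 in the treated list only. By name the picture differed. Only 8 of the 40 names (20.0%) were in both lists, against 44.8% of all names and 51.8% of the 141 names of the other families. The control list held 2.69 times as many names of these families as the treated list, while for the other families the ratio was 1.28 (120 and 94 names). In distinct sequences the ratios were 1.75 (14 and 8) and 1.42 (88 and 62). These ratios compare 2 lists and have no replicate.

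The gap between names and sequences came from the most-named sequence of miR398 and that of miR408. The sequence shown as osa-miR398b stood under 12 names in the control list and under 1 name, osa-miR398b itself, in the treated list. The names present for the control library alone include aqc-miR398b, vvi-miR398c, ptc-miR398c-3p and nta-miR398. The sequence shown as aly-miR408-3p stood under 10 control names and 6 treated names, of which 3 (aly-miR408-3p, csi-miR408 and mdm-miR408a) were the same. Its other names in the treated list were cme-miR408, lus-miR408a and mes-miR408. These names were missing from the control list although their mature sequence was in it. In the ranking of all 122 sequences by the difference in number of names, these sequences came first, with a difference of 11, and second, with a difference of 4.

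Names in 1 list only were therefore often no difference in sequence. Of the 27 copper miRNA names in the control list only, 18 had a mature sequence that was also in the treated list under another name, 11 of miR398 and 7 of miR408. Of the 5 names in the treated list only, 3 had a sequence that was also in the control list. For the other families, this held for 0 of 47 names in the control list only and 1 of 21 in the treated list only. Put by sequence, 43 of the 44 shared sequences of other families had identical sets of names in both lists, and the exception belonged to miR482. Among the 6 shared copper miRNA sequences, 4 had identical sets of names, each a single name. All 8 copper miRNA names found in both lists carried the same sequence in each. How the authors' search assigned reads to entries of identical sequence is not stated, and its part in these counts was not tested.

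**Figure D1:**
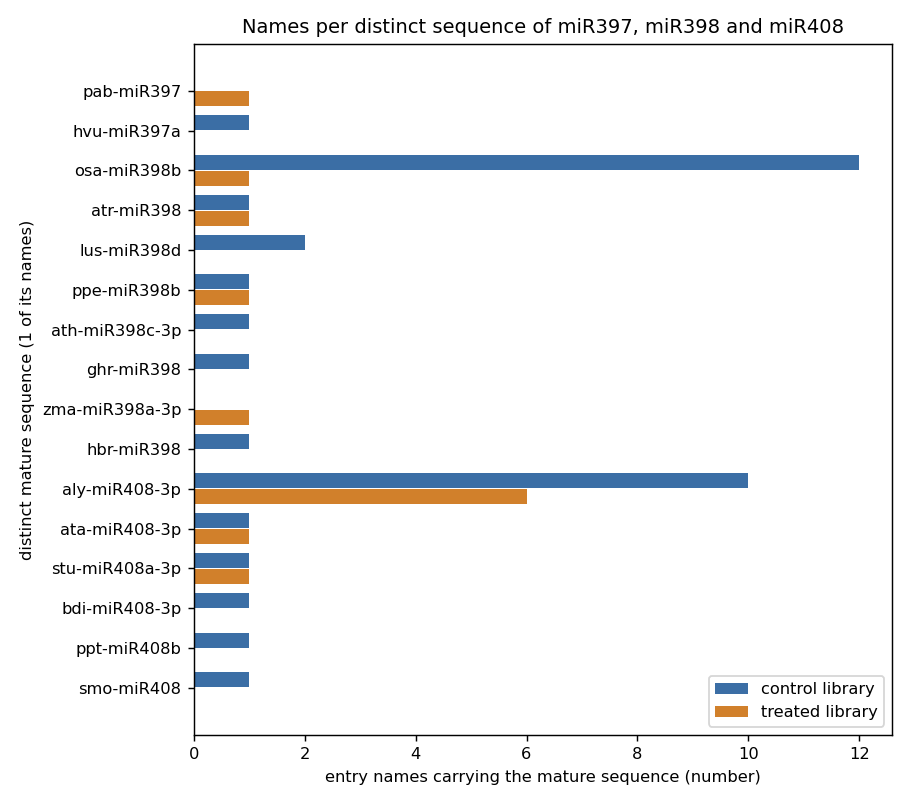
Number of entry names (x axis) under which each of the 16 distinct mature sequences of miR397, miR398 and miR408 (y axis, by 1 of its names) stood in the control list (blue) and the treated list (orange). The sequence of osa-miR398b had 12 control names and 1 treated name, that of aly-miR408-3p had 10 and 6, and no other sequence had more than 2 in either list.

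miR398, the regulator of superoxide dismutase, was listed under 19 names and 7 sequences for the control library and under 4 names and 4 sequences for the treated library. The treated list had osa-miR398b, ppe-miR398b, atr-miR398 and zma-miR398a-3p. The first 3 of these were in both lists, and zma-miR398a-3p was in the treated list only. Leaving hbr-miR398 aside, the 7 remaining sequences were all of 21 nt and differed from each other by 1 to 3 edits (median 2). Positions below count from 1 at the 5′ end of osa-miR398b, and in each change its base comes first. Of the 21 positions, 16 were the same in all 7 sequences. The 5 variable positions were 1, 8, 15, 20 and 21.

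Position 15 of miR398 varied in the control list only. The change G15A was present in ath-miR398c-3p, ghr-miR398 and lus-miR398d, a set of 3 sequences under 4 names, all in the control list only. All 4 treated sequences had G at this position, as had 3 of the control sequences under 14 names. The control list was the longer, with 7 miR398 sequences (hbr-miR398 included) against 4. Over all families, 52 of 122 sequences were in the control list only. Variable positions were not compared for other families. Another difference of the control list was at the 3′ end, where ghr-miR398 had G21U and lus-miR398d had G21C. Each of the 4 treated sequences ended in G. The treated list added U20C, in zma-miR398a-3p. The changes in both lists were U1C in ppe-miR398b and U8C in atr-miR398, the single change within the miR398 seed. Thus 6 sequences shared the seed GUGUUCU, with 17 control names and 3 treated names, and atr-miR398 alone had GUGUUCC. The distances to the other list were small. ath-miR398c-3p lay 1 edit from osa-miR398b in the treated list, and ghr-miR398 and lus-miR398d lay 2 edits from it.

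The entry hbr-miR398 was in the control list only and was of another kind. It lay 11 to 13 edits from the other miR398 sequences. Set against osa-miR398b as a duplex with 2-base 3′ overhangs, 17 of its 19 facing bases formed Watson-Crick pairs and 2 were unpaired. With zma-miR398a-3p the numbers were the same, and with the other 5 sequences 16 bases paired. Its letters are thus those of the strand that faces mature miR398 in a hairpin, commonly called the star or 5p strand, although its name has no arm suffix. No opposite strand of miR397 or miR408 was listed for either library, and no name of the 3 families had a 5p suffix.

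miR397, the laccase regulator, was represented by 1 entry per library, and these differed. hvu-miR397a, named for barley, was in the control list, and pab-miR397, named for Norway spruce, was in the treated list. Both were of 21 nt. Counting from the 5′ end of pab-miR397, hvu-miR397a had U1C, A3G and C20U, and the remaining 18 positions were identical. One of the changes, A3G, lies in the seed, so the seeds were CAUUGAG for the treated and CGUUGAG for the control entry. The stretch between positions 4 and 19 was the same in both. With 3 edits between them, these sequences were as far apart as the most distant of the 7 miR398 sequences without hbr-miR398, whose median was 2.

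miR408, which targets plantacyanin and laccase transcripts, was listed under 15 names and 6 sequences for the control library and under 8 names and 3 sequences for the treated library. All 3 treated sequences, those of aly-miR408-3p, ata-miR408-3p and stu-miR408a-3p, were also in the control list. bdi-miR408-3p, ppt-miR408b and smo-miR408 were in the control list only. The 6 sequences differed by 1 to 4 edits (median 2). Positions are counted from the 5′ end of aly-miR408-3p.

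The miR408 sequences differed by shifted ends and by changed bases. ppt-miR408b and smo-miR408 matched aly-miR408-3p at every position they cover, but started 1 base later and ran 1 base and 2 bases further at the 3′ end. ata-miR408-3p and stu-miR408a-3p also started 1 base later. The former ended where aly-miR408-3p ends and had G20C, and the latter ran 1 base further at the 3′ end and had U7A and C21U. bdi-miR408-3p kept the ends of aly-miR408-3p and had A1C. In all, 17 of 21 positions were the same in every sequence that covers them. Position 1 is covered by only 2 of the 6. The later start moves the seed, which became GCACUGC in 3 sequences, GCACAGC in stu-miR408a-3p and stayed UGCACUG in 2. Each of these 3 seeds was in both lists. By names, UGCACUG had 11 control and 6 treated, GCACUGC had 3 and 1, and GCACAGC had 1 in each.

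**Figure D2:**
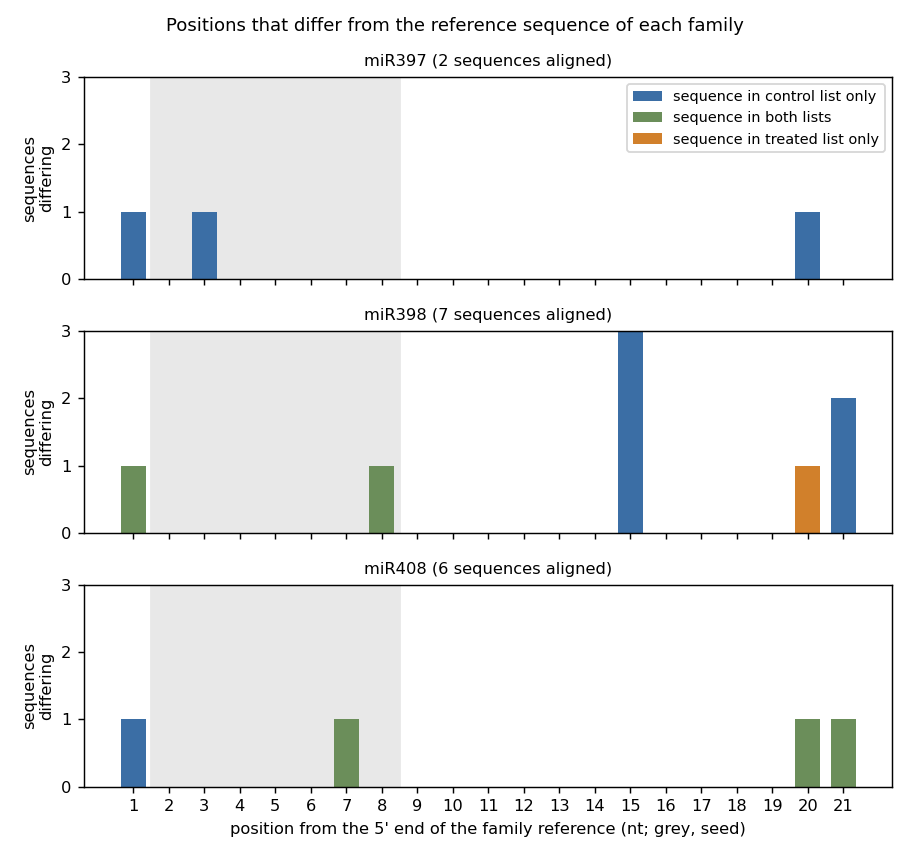
Number of distinct sequences (y axis) that differ from the family reference at each position (x axis, nt from the 5′ end) for miR397 (reference pab-miR397), miR398 (osa-miR398b) and miR408 (aly-miR408-3p); hbr-miR398 is left out, colours give the list of the differing sequence, and grey marks the seed. At position 15 of miR398, 3 sequences differ, all in the control list only; changed bases lie at positions 1 to 8 or 15 to 21 and none between.

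Across the 3 families, 8 seeds were found, of which 5 were in both lists. The share of seeds in both lists was not computed over all families. The 41.0% given above is for whole sequences and is no background for seeds. None of the 8 was the seed of any other listed family. The families were also far from each other. Without hbr-miR398, miR398 and miR408 sequences lay 11 to 13 edits apart, miR397 and miR408 sequences 11 to 14, and miR397 and miR398 sequences 12 to 15. The closest sequences of any other listed family were 8 edits away, from osa-miR398b to a miR858 entry and from smo-miR408 to a miR156 entry. Apart from hbr-miR398, each control sequence lay within 3 edits of a treated sequence of its family, and each treated sequence within 3 edits of a control sequence.

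**Figure D3:**
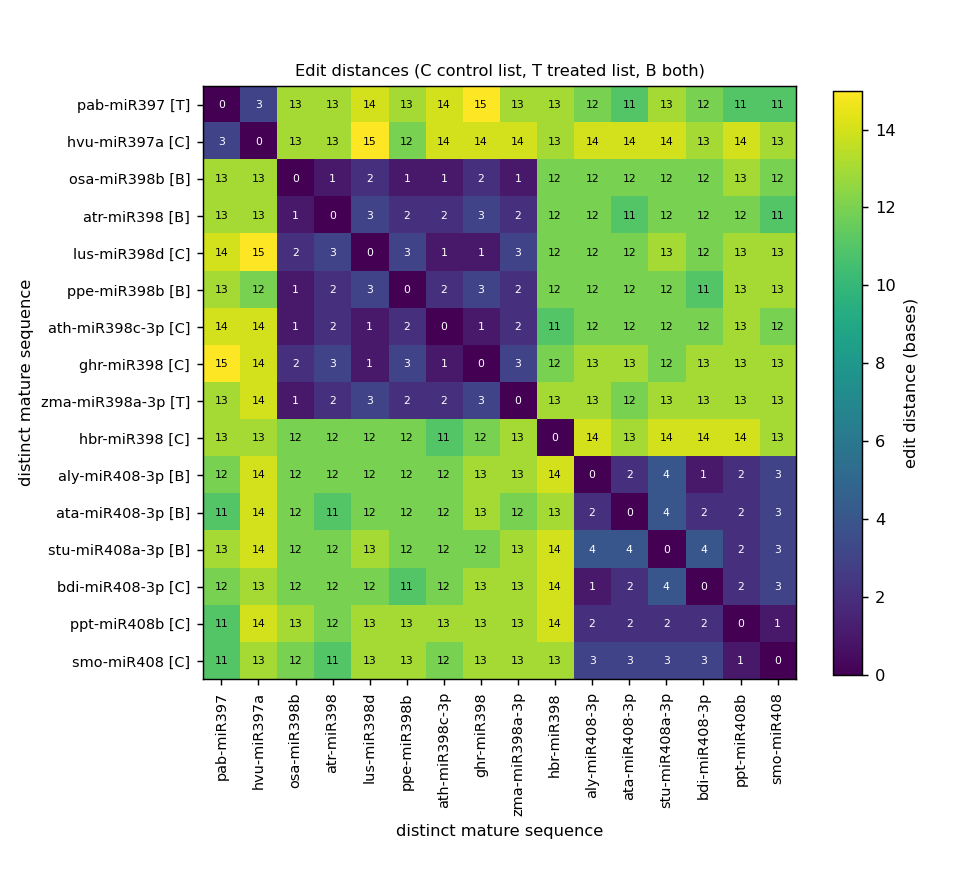
Edit distance in bases (colour and number) between each pair of the 16 distinct sequences (both axes), with C, T and B for sequences in the control list, the treated list or both. Each family forms a block of 1 to 4 edits, and hbr-miR398 lies at least 11 edits from every other sequence.

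Length and composition, which were not used to choose the entries, are given next. Of the 14 control sequences, 12 were of 21 nt (85.7%, exact 95% interval 57.2% to 98.2%), and of the 8 treated sequences 7 were (87.5%, 47.3% to 99.7%). These intervals also treat sequences as independent, although those of a family are related. For the other families the shares were 46.6% of 88 and 43.5% of 62. The exceptions were ata-miR408-3p, of 20 nt and in both lists, and smo-miR408, of 22 nt and in the control list only. A 5′ U, the base favoured by the main Argonaute of plant miRNAs, AGO1, began 9 of the 14 control sequences (64.3%) and 6 of the 8 treated sequences (75.0%), near the 62.5% and 66.1% of the other families. The most-named miR408 sequence began with A, hbr-miR398 with G, and hvu-miR397a, ppe-miR398b and bdi-miR408-3p with C. The mean GC content was 60.9% ± 4.56 for the control library (SD, 14 sequences) and 62.3% ± 5.21 for the treated library (SD, 8 sequences). The lists share 6 of these sequences and are not separate samples. For the other families the means were 51.5% ± 8.38 and 51.0% ± 11.2 (SD, 88 and 62 sequences).

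The species codes of the names were spread over land plants. There were 29 codes in all, 25 of them on the control side and 13 on the treated side, with 9 in both. For the other families the numbers were 38 and 30 of 39 codes, with 29 in both. Eudicots, the group to which S. hexandrum belongs, gave 26 control names and 8 treated names, and monocots gave 5 and 3. Part of the eudicot difference lies in names of the osa-miR398b sequence, which was in both lists. Most of its 12 control names are of eudicots, and its 1 treated name is of a monocot. Lineages were not counted for the other families. Conifer names were pta-miR408 in the control list and pab-miR397 in the treated list. The moss and lycophyte names, ppt-miR408b and smo-miR408, were in the control list only, as was aqc-miR398b, named for Aquilegia caerulea of the same plant order. The sequence of aqc-miR398b was in both lists, under osa-miR398b. In the control list, 6 codes (bdi, gma, mdm, mtr, ptc and vvi) had a miR398 as well as a miR408 entry, and in the treated list 0 had both. The miR398 names of these 6 codes all belong to the sequence of osa-miR398b, which was also in the treated list, under 1 name. The treated list had only 4 miR398 codes and 8 miR408 codes, against 16 and 14 in the control list. No such count was made for other families. Linum usitatissimum had 3 miR398 names in the control list and 1 miR408 name in the treated list. The sequences of lus-miR398a and lus-miR408a were in both lists, under other names in the list that lacks them. Only the sequence shared by lus-miR398d and lus-miR398e was in a single list, that of the control.

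**Figure D4:**
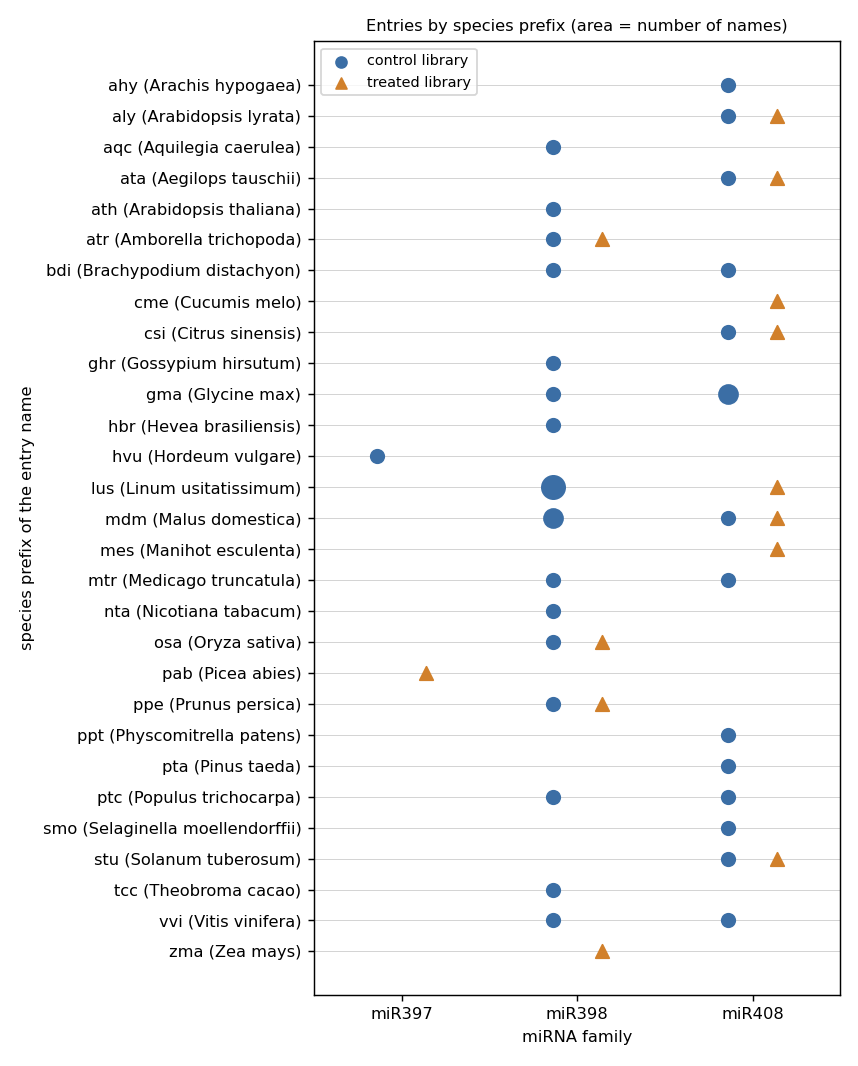
Entries of miR397, miR398 and miR408 (x axis) by the species code of their names (y axis) in the control list (blue circles) and the treated list (orange triangles), with the area of a marker set by the number of names. Of the 29 codes, 25 have a circle, 13 a triangle and 9 both; most miR398 codes have a circle only.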

How the data were processed

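Total RNA of mature leaf was made into libraries with a NEBNext small RNA kit and read single-end, per the labels' protocols, and the submitters' processing notes name cutadapt, without a version. The sources used here do not give the mapper, the reference miRNA collection, the mismatches allowed or the read minimums. The conserved miRNAs were deposited as 2 lists of names with sequences, without abundance. Each was assigned by the library code it bears, which stands in a sample title. The deposited table of read counts per predicted locus has 117 entries and was used only to look for these families by name. Only 1 entry carries a miRNA name, of another family, so this search says little.

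Whitespace was trimmed, and lists were compared by name and exact sequence. Edit distance counts substitutions, insertions and deletions. Sequences were aligned without gaps to the most-named sequence of their family (for miR397, where both had 1 name, pab-miR397), at an offset of at most 3 bases and an overlap of at least 17. A sequence more than 5 edits from all others of its family was set apart. The alignment was tested on simulated sequences whose changes lay away from both ends. Changes at the first and last few positions were not covered by that test. Species names were read from the codes by the usual convention. All members and all distinct sequences are named. The families and comparisons were chosen with earlier results of these data known. Shares carry exact (Clopper-Pearson) 95% intervals. Python 3.11.15, scipy 1.17.1 and matplotlib 3.10.9 were used.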

Additional observations from a re-analysis of the deposited data

How the results depend on the processing

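The share of copper miRNA sequences in both lists was 37.5%. It was 75.0% when a sequence of the same family within 2 edits in the other list counted as shared, and 72.5% of names when a name counted by its sequence, by how these alternatives are built. Under the other 9 alternatives it was 20.0% (full names) to 62.5% (seeds). These values lie within its wide binomial interval, but that interval does not measure a change of the unit counted. The share over all families was computed only for whole sequences (41.0%) and for names (44.8%), so the other alternatives have no background. Leaving out each family in turn and counting names by sequence were chosen after seeing the data. The numbers of 14 control and 8 treated sequences became 35 and 13 as names, and 4 and 3 as groups linked within 2 edits over both lists together, where hvu-miR397a, pab-miR397 and hbr-miR398 each stand alone. Grouped in each list alone, also chosen after seeing the data, there were 4 and 4, since stu-miR408a-3p joins the other treated miR408 sequences only through ppt-miR408b of the control list. The share of 21-nt sequences was 94.3% and 92.3% by names. The lists give no depth, so an entry missing from a list is not shown to be absent from the library. No paired analysis was possible because each group held a single library.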
